A study of Mus musculus with 14 samples.

Results

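The genes described here are 8 members of the mouse annexin family, namely Anxa1, Anxa2, Anxa3, Anxa4, Anxa5, Anxa6, Anxa7 and Anxa11. They were taken by name and matched by Entrez identifier to the full tables in which the authors compared GLI1-induced with control samples. The authors' deposited table for day 5 (D5) holds 15108 genes and that for day 10 (D10) 15744, and all 8 members have a value on both days. The members were chosen by name with the fold changes and p-values of both comparisons already known, so these values are a description and not independent evidence. Of the other mouse annexins, Anxa9 was at a low level on both days, with an average log2 CPM (counts scaled to the library total) of -0.40 at D5 and -0.68 at D10 in the authors' deposited table. Anxa8 had a value at D10 alone, with an average log2 CPM of 1.23 in the authors' deposited table, and Anxa10 and Anxa13 were looked up and have no value on either day in the tables used here.

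The 14 libraries were made from polyadenylated RNA of mouse embryonic stem cells in culture towards a neural fate, all of the line GLI1-FTA in the A2Lox.cre background, which is built for doxycycline-driven expression of a transgene. GLI1-induced samples (GLI1 OE) received 500 ng/ml doxycycline for 48 h from day 3 to day 5, and there were 4 at D5 and 3 at D10, with the drug washed out for the last 5 days. Control samples of the same line were untreated, 4 at D5 and 3 at D10, so that doxycycline and GLI1, a transcription factor that activates Hedgehog target genes, cannot be told apart. The labels call the D5 cells neural progenitors and the D10 cells immature neurons, do not say whether replicates were separate cultures, and do not say whether the line is a single clone. As a check of the labels, Gli1 was 27.8-fold higher in induced samples at D5 and 1.48-fold higher at D10, computed from the authors' deposited table. The sources used here do not say whether that value counts transgene transcripts, endogenous transcripts or both. The files hold 1 fold change, average level and p-value per gene and day, so no level of a single library, SD or sequencing depth can be given, and p-values concern only the spread between these samples.

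Annexins are cytoplasmic proteins that bind acidic phospholipids, above all phosphatidylserine, when calcium rises. They share a conserved core of repeats that sits on the membrane and differ in the N-terminal tail, which binds partners such as S100 proteins. They are known for patching torn plasma membranes, for vesicle traffic and exocytosis and for linking membranes to actin, and several are abundant in epithelial, endothelial and mesenchymal cells.

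The comparison at D5 asks how annexin transcripts stood at the end of the GLI1 pulse. All 8 had a log2 fold change below 0, with levels in GLI1-induced samples estimated at 0.617 to 0.892 times those in control samples. The median log2 fold change was -0.43, against 0.0015 over all genes. Anxa4, Anxa1 and Anxa11 fell at an adjusted p under 0.05 in the authors' deposited table, and the other 5 did not pass. Of all genes at D5, 4.44% passed in either direction, 2.10% passed as lower in induced samples, and 49.5% had a log2 fold change below 0. At an adjusted p under 0.1 there were 4 lower members (2.68% of all genes were lower by that rule), at an unadjusted p under 0.05 there were 6 (5.83%), and with p-values rescaled within bins of expression there were 3 (2.55%). At an adjusted p under 0.01 there was 1 (1.09%), with Holm's adjustment 0 (0.410%), with a 1.5-fold minimum 2 (1.32%), and after leaving out genes whose average log2 CPM was under 1 there were 3 (2.15% of the genes left). In bulk RNA, fewer cells of a type that holds these transcripts and less RNA per cell cannot be told apart.

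Anxa4, best known from secretory epithelia, fell by 0.70 on the log2 scale in the authors' deposited table (adjusted p = 0.00166). An SE implied by that fold change and its p-value is 0.17, and the 95% interval made from it runs from -1.03 to -0.37. The approximate level of Anxa4 was 19.6 CPM in induced and 31.7 CPM in control samples at D5. Such group levels were computed from the authors' average log2 CPM and fold change, with both groups weighted equally, and have no error of their own.

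Anxa1, which dampens inflammation by way of formyl peptide receptors, fell by 0.66 on the log2 scale in the authors' deposited table (adjusted p = 0.0254, implied SE 0.20). Its approximate level was 8.24 CPM in induced and 13.05 CPM in control samples. Anxa11, which has a long N-terminal tail and ties RNA granules to lysosomes, fell by 0.58 in the authors' deposited table (adjusted p = 0.0415, implied SE 0.18). Its approximate level was 7.75 CPM in induced and 11.6 CPM in control samples. These genes stood at places 313, 554 and 636 when all genes at D5 were ordered by p-value.

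The remaining members did not pass at D5, and their intervals differ in what they leave room for. Anxa2, which pairs with S100a10 at the cell surface and under the plasma membrane, had a log2 fold change of -0.47 in the authors' deposited table (adjusted p = 0.186) with an implied interval from -0.84 to -0.10. Its approximate level was 17.6 CPM in induced and 24.5 CPM in control samples. Anxa5, the protein used as a probe for phosphatidylserine on dying cells, had an adjusted p of 0.0841 and a log2 fold change of -0.38 per the authors' deposited table, with 26.1 CPM in induced and 33.9 CPM in control samples. Anxa7, first described for its part in the fusion of chromaffin granules, also stood at -0.38 (adjusted p = 0.267, the authors' deposited table), with 15.7 CPM in induced and 20.4 CPM in control samples. For Anxa2, Anxa5 and Anxa7 the unadjusted p was under 0.05, and the interval, which is made from that p, therefore lay below 0. The intervals of Anxa3 and Anxa6 crossed 0. None of these intervals is adjusted for the number of genes tested.

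Anxa3 had the widest interval of the family, from -0.90 to 0.26 around a log2 fold change of -0.32 (adjusted p = 1.00 in the authors' deposited table), and also the lowest level, 4.87 CPM in induced and 6.09 CPM in control samples. Anxa6, whose annexin core is duplicated, stood nearest to 0 at -0.16 in the authors' deposited table (adjusted p = 0.994), with 38.0 CPM in induced and 42.6 CPM in control samples. Added over the 8 members, the approximate level was 138 CPM in induced and 184 CPM in control samples at D5. Outside the list, Anxa9 stood at 0.85 at D5 with an adjusted p of 0.485 per the authors' deposited table and so did not pass, at an approximate level of 0.972 CPM in induced and 0.540 CPM in control samples.

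**Figure D1:**
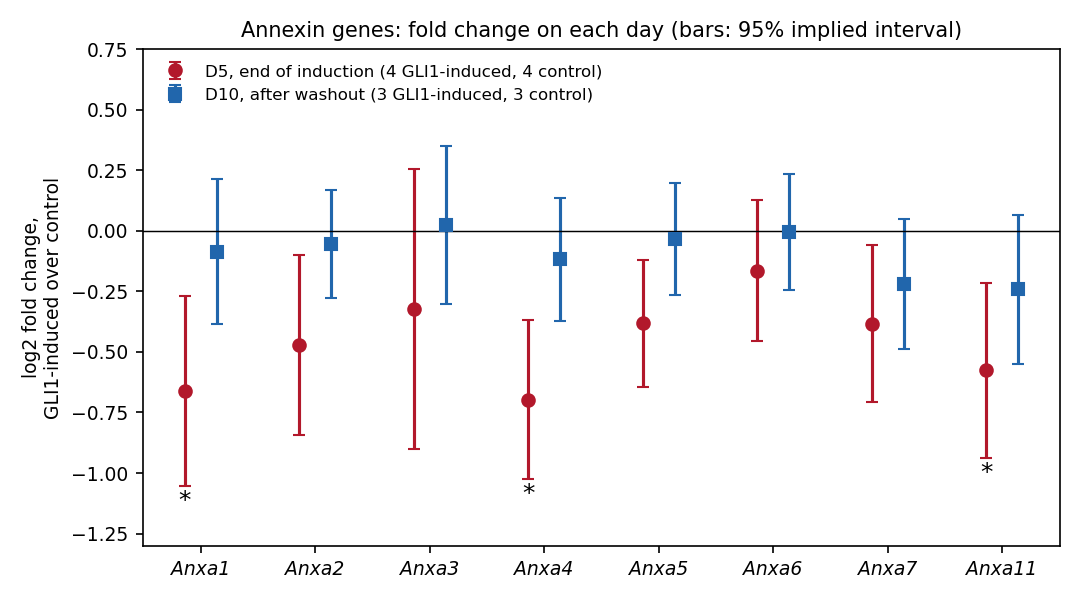
Log2 fold change of each annexin gene, GLI1-induced over control (vertical axis), at D5 (red circles) and D10 (blue squares), with bars for the 95% interval implied by the authors' p-value and asterisks for an adjusted p under 0.05. The D5 points lie between -0.70 and -0.16 with asterisks at Anxa1, Anxa4 and Anxa11, and the D10 points lie between -0.24 and 0.024 with no asterisk.

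The stretches of 250 bases before the RefSeq transcription starts are shown for the 3 members that passed at D5 and for Anxa2, the member with the largest difference in level between the days. They come from RefSeq on build GRCm38.p6, which had such a stretch for 6 of the 8 members (not Anxa3 and Anxa6), and the sources used here do not name the authors' build. The Anxa1 stretch is chr19:20390672-20390921 (minus strand), that of Anxa2 chr9:69453433-69453682 (plus strand), that of the upstream Anxa4 start chr6:86793585-86793834 (minus strand) and that of Anxa11 chr14:25841905-25842154 (plus strand). Each is written 5′ to 3′ on the strand of the gene, ending at the base before the start. Capitals mark matches, on either strand, to CCACCC, the core of the GLI site, to TATAAA, the TATA box, and to TGANTCA, the AP-1 site.
Anxa1: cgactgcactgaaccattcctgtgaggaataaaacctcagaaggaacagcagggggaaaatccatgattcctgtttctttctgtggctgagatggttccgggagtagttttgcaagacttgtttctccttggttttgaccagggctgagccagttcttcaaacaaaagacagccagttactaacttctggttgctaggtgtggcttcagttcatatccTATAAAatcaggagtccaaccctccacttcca
Anxa2: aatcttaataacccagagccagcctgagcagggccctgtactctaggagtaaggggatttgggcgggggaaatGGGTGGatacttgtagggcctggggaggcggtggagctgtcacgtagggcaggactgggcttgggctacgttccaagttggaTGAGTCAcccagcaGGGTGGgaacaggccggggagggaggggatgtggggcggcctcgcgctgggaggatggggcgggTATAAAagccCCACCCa
Anxa4: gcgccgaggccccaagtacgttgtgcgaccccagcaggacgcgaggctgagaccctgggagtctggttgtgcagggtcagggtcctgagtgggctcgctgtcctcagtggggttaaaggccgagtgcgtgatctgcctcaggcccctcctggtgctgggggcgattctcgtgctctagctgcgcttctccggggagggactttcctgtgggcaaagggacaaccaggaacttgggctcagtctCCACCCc
Anxa11: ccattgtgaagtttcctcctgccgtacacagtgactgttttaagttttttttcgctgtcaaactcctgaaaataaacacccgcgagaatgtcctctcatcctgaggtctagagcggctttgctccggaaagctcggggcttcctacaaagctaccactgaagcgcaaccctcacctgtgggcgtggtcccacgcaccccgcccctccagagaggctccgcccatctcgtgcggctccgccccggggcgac

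The longer GLI site GACCACCCA, which contains that core, was searched on both strands and was matched in 0 of the 8 stretches of the family (Anxa4 and Anxa7 have more than 1 start each), and in 0.225% of all 32851 stretches of the same length. Its core CCACCC was matched in 3 of the 8, for Anxa2, for the upstream Anxa4 start and for an Anxa7 start, against 28.1% of all stretches. Bases just after that Anxa7 start were not found in a GENCODE transcript of the gene. They were found for the other Anxa7 start, whose stretch has no match to the core. The Anxa1 and Anxa2 stretches hold TATAAA, which begins 32 bases before the start in Anxa1 and 17 bases before it in Anxa2, against 12.4% of all stretches. Anxa2 also holds TGANTCA, 95 bases before its start, a motif in 6.75% of all stretches. The Anxa11 stretch has no match to any of these letters and holds 17 CG pairs, against 2 in Anxa1 and a median of 6 over all stretches. A match is a run of letters and no evidence of binding.

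The comparison at D10 asks what was left of the difference 5 days after washout. In the authors' deposited table, 0 of the 8 annexins passed at D10, at an adjusted p of 1 for each, and 0 had an unadjusted p under 0.05. Of all genes at D10, 0.0826% passed in either direction and 0.00% as lower in induced samples. The share of all genes lower by the looser rules was 0.00635% at an adjusted p under 0.1, 0.648% at an unadjusted p under 0.05 and 0.260% with rescaled p-values, and 0 members passed by any of them. The log2 fold changes of the family ran from -0.24 to 0.024 with a median of -0.070, against a median of 0.0027 over all genes. They were below 0 for 7 of the 8 members, against 48.9% of all genes at D10, and 7 of 8 were below 0 on both days, against 28.5% of the genes in both tables.

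Anxa11 and Anxa7 were the members furthest from 0 at D10. Anxa11 had a log2 fold change of -0.24 in the authors' deposited table (unadjusted p = 0.125) with an implied interval from -0.55 to 0.067, and 15.6 CPM in induced against 18.4 CPM in control samples. Anxa7 stood at -0.22 in the authors' deposited table (unadjusted p = 0.111) with an interval from -0.49 to 0.050, and 35.1 CPM in induced against 40.8 CPM in control samples. Both intervals cross 0. They also overlap the D5 intervals of the same genes, which run from -0.94 to -0.22 for Anxa11 and from -0.71 to -0.057 for Anxa7. That they cross 0 rests on the authors' test at D10. Rescaling within bins of expression enlarged z, the fold change over its SE, for 98.2% of genes at D10 and 66.3% at D5. It lowered the implied SE at D10 to 0.093 for Anxa11 and 0.075 for Anxa7. With these SEs both intervals would lie below 0, and those of the other members would still cross 0. Neither gene passed at D10 by the rescaled rule.

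The other members lay within 0.12 of 0 on the log2 scale at D10. Anxa4 stood at -0.12 in the authors' deposited table, with an interval from -0.37 to 0.14 and levels of 52.7 CPM in induced and 57.2 CPM in control samples. For Anxa1 the fold change was -0.086 in the authors' deposited table, with an interval from -0.38 to 0.21 and levels of 65.3 CPM in induced and 69.3 CPM in control samples. For Anxa2 it was -0.055 in the authors' deposited table, with 220 CPM in induced and 228 CPM in control samples. By the authors' deposited table, Anxa5 stood at -0.034, Anxa6 at -0.0047 and Anxa3 at 0.024, Anxa3 being the only member above 0. Their levels at D10 were 89.0 CPM in induced and 91.1 CPM in control samples for Anxa5, 105 CPM in both groups for Anxa6, and 46.7 CPM in induced and 45.9 CPM in control samples for Anxa3. Outside the list, the authors' deposited table for D10 gives 0.074 for Anxa8 and 0.038 for Anxa9, neither of which passed.

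All 8 log2 fold changes were closer to 0 at D10 than at D5, as were 61.0% of the shared genes, and the differences between the days did not pass over all genes. The D10 minus D5 difference was tested with the implied SEs of both days, two-sided, and adjusted by Benjamini and Hochberg's method over all 14792 shared genes, of which 1.24% passed. It ran from 0.16 for Anxa6 to 0.58 for Anxa4. The Anxa4 difference had an interval from 0.16 to 1.00 and an adjusted p of 0.296, that of Anxa1 was 0.58 with an interval from 0.084 to 1.07 and an adjusted p of 0.632, and the other 6 had an adjusted p of 1. The rescaling of p-values named above treats most genes in a bin as unchanged. With it, 2.44% of shared genes and, of the annexins, Anxa4 alone passed, at an adjusted p of 0.0164.

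Annexin transcripts took a larger share of the RNA at D10 than at D5 in both groups. The average log2 CPM in the authors' deposited table was higher at D10 for all 8 members, against 50.4% of the genes in both tables, and at least doubled for 7 of 8, against 12.2%. The tables of the days were normalized separately and hold 1 average each, so this change has no replicate error and no test.

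Anxa2, Anxa3 and Anxa1 stood apart from the other members in this respect. The average of Anxa2 was 21.0 CPM at D5 and 224 CPM at D10, a 10.7-fold difference, and 99.5% of genes changed by less or went down. Anxa3 averaged 5.48 CPM at D5 and 46.3 CPM at D10, an 8.45-fold difference, and Anxa1 averaged 10.6 CPM at D5 and 67.3 CPM at D10, a 6.32-fold difference. The other members were 1.76-fold to 3.001-fold higher at D10, with Anxa11 lowest and Anxa5 highest among them.

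The same was seen within each group. In GLI1-induced samples the approximate level at D10 was 2.01-fold to 12.5-fold that at D5, and in control samples it was 1.59-fold to 9.34-fold, with Anxa11 at the low end and Anxa2 at the high end in both. Added over the family, the level at D10 was 629 CPM in induced and 656 CPM in control samples.

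**Figure D2:**
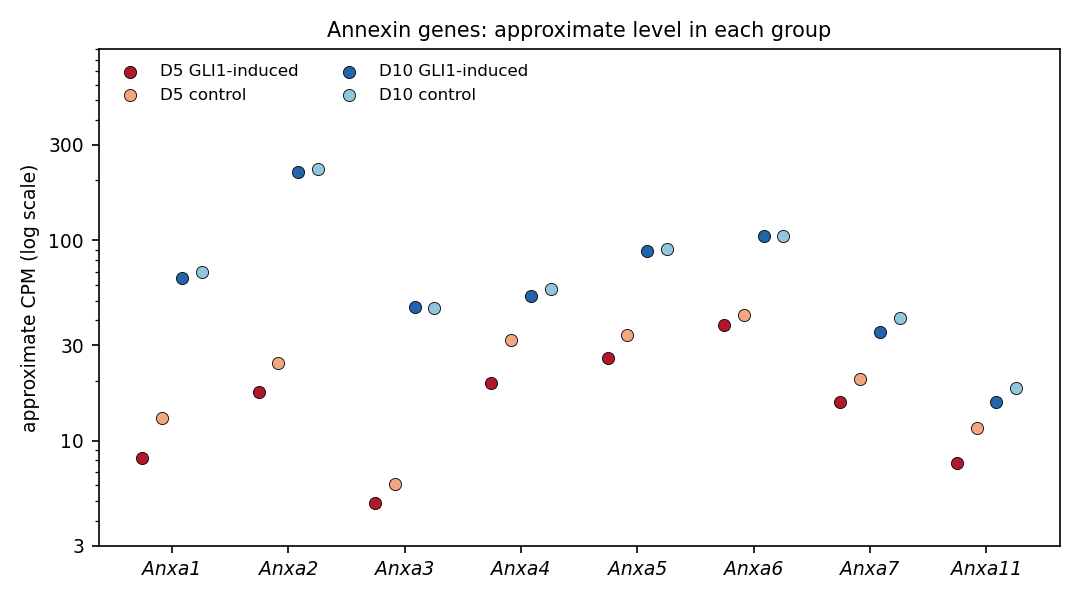
Approximate level of each annexin gene in CPM (vertical axis, log scale) in GLI1-induced and control samples at D5 (red and light red) and D10 (blue and light blue), computed from the authors' average and fold change without error bars, since no value per library was used. At D5 the induced point lies under the control point for all 8 genes, and at D10 the pairs lie close together at higher levels, with Anxa2 highest at 220 CPM in induced and 228 CPM in control samples.

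The order of the members by level also differed between the days. Per kilobase of the longest coding transcript in GENCODE M21, the D5 average was 17.3 CPM for Anxa5, 16.2 for Anxa6, 14.5 for Anxa2 and 12.6 for Anxa4, followed by Anxa1 at 6.36, Anxa7 at 6.22, Anxa11 at 4.03 and Anxa3 at 3.44. At D10 the average per kilobase was 155 CPM for Anxa2, 52.0 for Anxa5, 42.1 for Anxa6 and 40.2 for Anxa1, followed by Anxa3 at 29.0, Anxa4 at 27.1, Anxa7 at 13.1 and Anxa11 at 7.09. With no spread over libraries, neighbours in either order cannot be said to differ. The lengths are approximate, since the sources used here do not say which transcripts the authors counted.

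The genes in both tables were then split by their change of level between the days, a split made after the data were seen. Of the 1803 genes whose average was at least doubled at D10, 68.7% had a log2 fold change below 0 at D5 and 8.71% passed as lower in induced samples, with a median of -0.16. Among the other 12989 genes, 47.0% were below 0 at D5, with a median of 0.0075. The 7 annexins with at least a doubled level had a median of -0.38 at D5, and 2 of them, Anxa4 and Anxa1, passed as lower. The same D5 libraries enter both measures, so they are not independent.

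**Figure D3:**
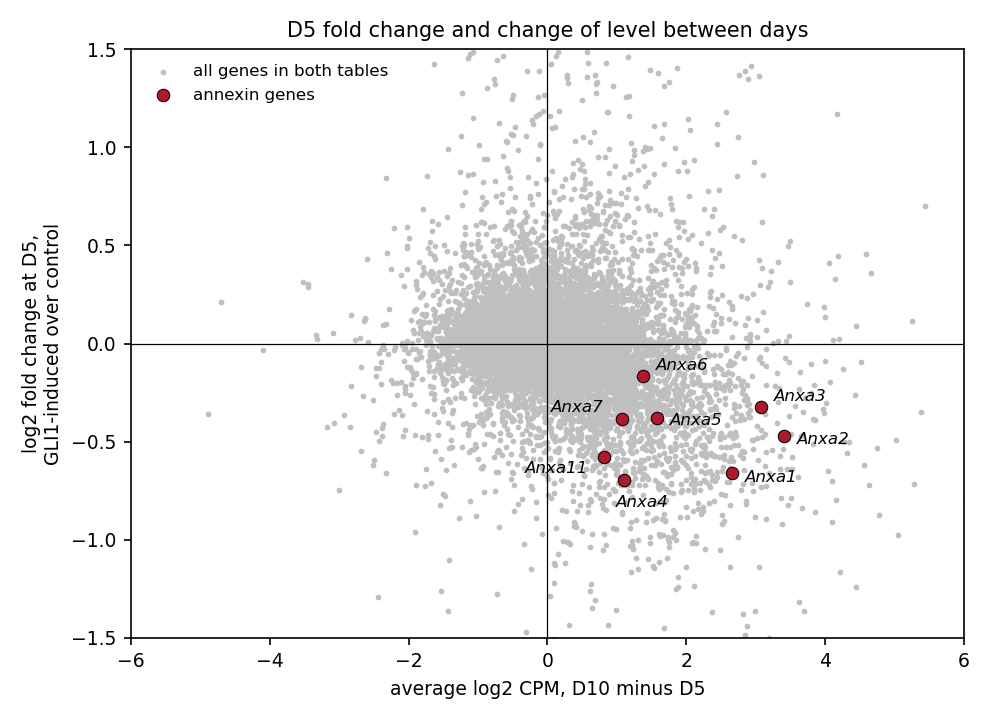
Log2 fold change at D5, GLI1-induced over control (vertical axis), against the average log2 CPM at D10 minus that at D5 (horizontal axis) for the 14792 genes in both tables (grey, with 100 outside the axes) and the 8 annexins (red). All 8 annexins lie to the right of 0 and below 0, with Anxa2, Anxa3 and Anxa1 furthest to the right.

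The genes whose pattern was nearest to that of Anxa4, the member with the smallest p at D5, were Dram1, Tmem144, Sox17, Slc40a1 and Frmd7. Nearness was the Euclidean distance over 3 values (the log2 fold changes at D5 and D10 and the D10 minus D5 average log2 CPM), among 12380 genes whose average log2 CPM reached 1 on both days, and the distances ran from 0.063 to 0.12. Sox17, an endoderm and endothelial transcription factor, had a log2 fold change of -0.65 at D5 and -0.20 at D10 in the authors' deposited table. Within the family, Anxa7 and Anxa11 were nearest to Anxa4, at distances of 0.33 and 0.34, and Anxa2 was furthest at 2.32.

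Of 40 genes listed as annexin partners in 6 groups, 30 had a value at D5 and 30 at D10. None passed on either day in the authors' deposited table, against 4.44% of all genes at D5 and 0.0826% at D10. At an unadjusted p under 0.05 there were 6 at D5, all below 0 but Plg (0.81), and 0 at D10. Plg was at a low level, with an average log2 CPM of -0.45 at D5 and no value at D10. Of all genes, 5.83% at D5 and 0.648% at D10 were lower by that rule. These shares leave out genes that were higher, so Plg is not to be counted against them. The median log2 fold change of the partners was -0.12 at D5, where 19 of 30 were below 0, against 49.5% of all genes. At D10 the partner median was -0.018 and 17 of 30 were below 0, against 48.9% of all genes. The partner groups are drawn beside the annexins and the cell type markers in the plot of lists.

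Among the S100 proteins, small calcium-binding dimers, several of which clasp annexin tails, 4 of 6 were below 0 at D5, with a median of -0.35. S100a10, the partner of Anxa2, stood at -0.39 at D5 (adjusted p = 0.263) and 0.017 at D10 in the authors' deposited table. S100a11, which binds Anxa1, stood at -0.31 at D5 and -0.16 at D10, and S100a6, which binds Anxa11, at -0.57 at D5 and -0.22 at D10 in the authors' deposited table. At D5 S100a6 was at a low level, with an average log2 CPM of -0.67 and an adjusted p of 0.925 in the authors' deposited table. Its implied interval at D5 ran from -1.47 to 0.33. S100a13 and S100a16 were above 0 on both days. The average level of all 6 was higher at D10, with a median of 2.86-fold, and S100a10 had an average log2 CPM of 3.95 at D5 and 5.93 at D10 in the authors' deposited table.

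Genes of membrane repair and of the layer under the plasma membrane had a median of -0.19 at D5 over 4 measured members and 0.059 at D10 over 5. Ahnak, a giant scaffold that binds the complex of Anxa2 and S100a10, stood at -0.35 at D5 (adjusted p = 0.609) and 0.059 at D10 in the authors' deposited table. Its average log2 CPM in the authors' deposited table was 6.68 at D5 and 8.89 at D10, and the 4 members of this group with values on both days were higher at D10, with a median of 5.25-fold. The surface plasminogen system, which Anxa2 helps to assemble, had 5 of 6 members below 0 at D5 with a median of -0.31, and a median of -0.12 at D10 over 5 members. In the group of penta-EF-hand proteins and calpains, which includes the Anxa7 partner sorcin (Sri) and the Anxa11 partner Pdcd6, the median was -0.11 at D5 and -0.069 at D10.

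Genes that move phosphatidylserine, the lipid annexins bind, between the membrane leaflets had a median near 0. It was 0.0073 at D5 and -0.027 at D10, with 2 of 7 below 0 at D5. The formyl peptide receptors, through which extracellular Anxa1 acts, have no value on either day.

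Several markers of non-neural cell types were also lower at D5. Of all genes at D5, 4.44% passed in either direction and 2.10% passed as lower in induced samples. Of 9 measured endoderm markers, 3 fell (Gata4, Gata6 and Dab2) and 0 rose by the authors' deposited table, with a summed approximate level of 632 CPM in induced and 885 CPM in control samples and no value for Apoa1. The endoderm markers Afp and Ttr stood above 0, at log2 fold changes of 0.86 and 0.54 per the authors' deposited table, neither of which passed. Of 7 measured epithelial markers, 3 fell (Epcam, Cdh1 and Esrp1) and 0 rose by the authors' deposited table, with no value for Krt5 and Krt14. The 7 together had a summed approximate level of 256 CPM in induced and 332 CPM in control samples. Of 4 measured endothelial markers, Flt1 fell in the authors' deposited table, with 23.4 CPM in induced and 39.4 CPM in control samples and no value for Pecam1, Tie1 and Emcn. The part of these cell type markers in the annexin result was not tested.

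Mesenchymal markers were mixed at D5. The share of all genes that passed at D5 was 4.44% in either direction and 2.10% as lower in induced samples. In the authors' deposited table Col3a1 and Pdgfrb rose, Pdgfra fell and the other 6 of 9 measured did not pass, with no value for Lum and Dcn. The 9 together had a summed approximate level of 232 CPM in induced and 311 CPM in control samples. Of 5 pluripotency markers, Dppa5a and Dnmt3b fell in the authors' deposited table. The summed approximate level of the 5 was 105 CPM in induced and 147 CPM in control samples. All 5 were below 0 at D5, with a median of -0.66. The 4 macrophage markers have no value at D5.

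Neural markers had medians near 0 at D5, when 2.10% of all genes passed as lower in induced samples. Of 8 neuron markers, the authors' deposited table has Tubb3 and Stmn2 lower at D5. The 8 together had a summed approximate level of 675 CPM in induced and 774 CPM in control samples, and a median of -0.013. None of the 7 neural progenitor markers passed at D5 in the authors' deposited table (their unadjusted p was 0.156 or more). The 7 together had a summed approximate level of 1284 CPM in induced and 1258 CPM in control samples, and a median of 0.018.

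At D10, 0 of the 53 measured markers passed in the authors' deposited table, against 0.0826% of all genes. An unadjusted p under 0.05 was held by 2 of them (Nes and Dppa5a, both above 0). The summed approximate level was 848 CPM in induced and 912 CPM in control samples for endoderm, 1428 CPM in induced and 1482 CPM in control samples for epithelium, and 1091 CPM in induced and 1074 CPM in control samples for mesenchyme. It was 204 CPM in induced and 214 CPM in control samples for endothelium, 35.2 CPM in induced and 29.8 CPM in control samples for pluripotency, 1832 CPM in induced and 1792 CPM in control samples for neurons, and 717 CPM in induced and 612 CPM in control samples for neural progenitors. Of the macrophage markers only Csf1r has a value at D10, with 9.37 CPM in induced and 8.68 CPM in control samples. From D5 to D10 the median level of epithelial markers was 5.33-fold, of mesenchymal markers 4.49-fold, of endothelial markers 3.47-fold, of neuron markers 2.80-fold and of endoderm markers 2.25-fold, and that of neural progenitor markers was 0.475-fold and of pluripotency markers 0.295-fold. Transcripts listed here as markers of other cell types than those labelled were present on both days. Krt18, of the epithelial list, had an average log2 CPM of 6.63 at D5 and 9.04 at D10 in the authors' deposited table. The neuron marker Dcx had 7.35 and 9.11. Bulk levels do not say which cells held these transcripts and give no share of cells.

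**Figure D4:**
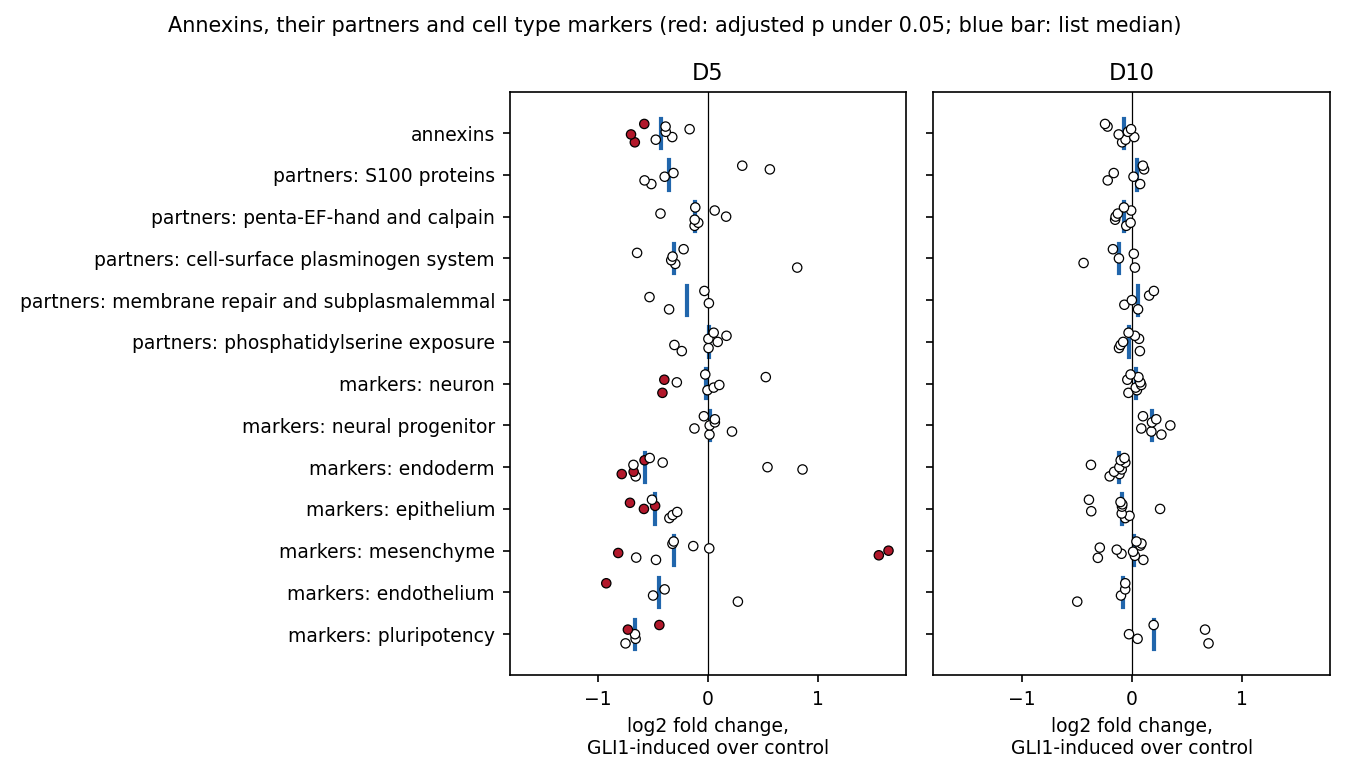
Log2 fold change, GLI1-induced over control (horizontal axis), of the 8 annexins, of the annexin partners and of the cell type markers, 1 point per gene, at D5 (left) and D10 (right), with red points for an adjusted p under 0.05 and a blue bar for the median of each list. At D5 the annexin median is -0.43. Among the marker lists it is -0.66 for pluripotency, -0.57 for endoderm, -0.48 for epithelium, -0.44 for endothelium and -0.31 for mesenchyme. It is -0.013 for neurons and 0.018 for neural progenitors, and at D10 no point is red.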

How the data were processed

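RNA was compared between 4 groups that the labels give. Per the labels' protocols, libraries were made from polyadenylated RNA and gave single-end reads, called stranded there. The sources used here name no aligner, counter, test or genome build, and counts of overlapping or antisense genes are uncertain. Per the file headers, the authors deposited 4 values per Entrez gene: log fold change, average log CPM, p-value and FDR (called adjusted p here). The deposited averages are in log2, since as powers of 2 they sum to 1001540 (D5) and 1001340 (D10); the fold changes were taken to be log2 as well. The deposited FDR matches a Benjamini-Hochberg adjustment of the deposited p-values (largest difference 3.41e-05). Symbols came from the authors' selected tables and from RefSeq on GRCm38.p6, for 94.6% of genes on either day. No member had a repeated row (the same average and fold change), which a shared read assignment would give.

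The implied SE is the size of the log2 fold change over that of the normal z of its p-value, and 95% intervals use it. It inherits the authors' test and is no replicate SD. Rescaled p-values come from z divided, in bins of about 500 genes of like average, by the factor that gives its size the median of a standard normal. Group levels are approximate CPM. Depth per sample is unknown. Members, partner lists, markers and tests were chosen with earlier results of these data known. Named by rule were all members, the other annexins, Gli1, S100a10, S100a11, S100a6, Ahnak and partners that passed. The 5 genes nearest to the leading member were also named by rule. S100a13, S100a16, Plg, Sri, Pdcd6 and the markers were named after their values were seen. Python 3.11.15 with scipy 1.17.1 was used, and the test between days and the rescaling were tested on simulated data.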

Additional observations from a re-analysis of the deposited data

How the results depend on the processing

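The D5 count of 3 annexins that passed depended on the threshold. It was 1 (Anxa4) at an adjusted p under 0.01, 0 with Holm's adjustment and, as an alternative added after seeing the data, 6 at an unadjusted p under 0.05. It was 4 at an adjusted p under 0.1, 2 with a 1.5-fold minimum, and 3 both after leaving out genes under an average log2 CPM of 1 and with rescaled p-values. The D10 count of 0 was the same under these 7 alternatives. The Anxa4 difference between the days, 0.58, passed with rescaled p-values alone. Subtracting the median of all genes moved no log2 fold change by more than 0.0027, and taking the deposited average as a mean of log2 CPM moved no approximate level by more than 2.93%. Leaving out each replicate was not run, since the files hold no values per library. No paired analysis was possible because the files hold no values per library. With an implied SE of 0.13 to 0.30 at D5 and 0.11 to 0.17 at D10, a member's fold change is known to about that size only.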
